A study of Mus musculus with 11 samples.

Results

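The endogenous retroviruses described here are the ERV1 class, the copies in the mouse genome that descend from gammaretroviruses. The members were all rows of the deposited table of transposable element (TE) copies whose family field read exactly ERV1 and whose value was above 0 TPM (reads scaled by copy length and by the total over all TE copies of a library) in at least 1 library. This gave 9917 of the 72095 annotated ERV1 copies, of which 2469 of 15538 were internal parts (the retroviral body, names ending in -int) and 7448 of 56557 were long terminal repeats (LTRs, the retroviral promoters). Over TE copies of every family, 578629 of 3725827 were above 0, 15.5% against 13.8% of ERV1 copies.

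RNA with poly(A) tails was sequenced from whole testes of mice at postnatal day 5, which hold spermatogonia and somatic cells. Whole testes is the paper's description, while the sample titles read "Germ cells". There were 11 libraries of 4 genotypes, namely 2 wild-type (WT), 3 Dnmt3CKO/KO (Dnmt3C KO), 3 with a germ cell deletion of Nrf1 (Nrf1 cKO, written Nrf1KO/KO in the labels) and 3 carrying both (dKO). The Dnmt3C KO is constitutive. The Nrf1 cKO combines a floxed allele, recombined by the germ cell driver Ddx4-Cre, with a null allele. Somatic cells of Nrf1 cKO and dKO testes therefore keep Nrf1 from the floxed allele alone. The study compared the genotypes to ask whether retrotransposons that lack methylation need NRF1 to be expressed.

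Gammaretroviral copies carry gag, pol and env genes between identical LTRs, and transcription starts in the upstream LTR. The mouse lineages include murine leukaemia virus (MLV) type proviruses, the non-coding VL30 elements, GLN elements whose primer binding site matches a glutamine tRNA, and the MuRRS sequences. DNMT3C is a rodent DNA methyltransferase that methylates promoters of young retrotransposons in perinatal male germ cells, and NRF1 is a transcription factor that binds a CpG-containing motif only when it is unmethylated. MLV-type LTRs are also known to be silenced by the zinc finger protein ZFP809 with TRIM28 and SETDB1.

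Sequences of annotated promoters that lie in or reach into ERV1 copies above 0 are given for the lineages that the results turn on, from RefSeq (GRCm38.p6), each running from 250 bases before to 50 bases after a gene's start, with CG dinucleotides in capitals. The Gm43305 window (chr14:54297439-54297738, minus strand) holds 15 CG. Its last 197 bases lie in the MLV-type LTR RLTR4_Mm_dup208 and hold 11 of them, its first 103 bases lie outside that copy, and 126 bases fall in the neighbouring RLTR4_Mm_dup209. The window in the VL30 LTR RLTR6_Mm_dup159 (Gm40826, chr13:17685729-17686028, minus strand) holds 8 CG. The GLN windows lie in internal parts, MMERGLN-int_dup46 (Gm46754, chr2:94806013-94806312, plus strand) with 6 CG and MMERGLN-int_dup223 (Gm42048, chr8:121833741-121834040, plus strand) with 5 CG.
Gm43305 window, from base 104 in RLTR4_Mm_dup208: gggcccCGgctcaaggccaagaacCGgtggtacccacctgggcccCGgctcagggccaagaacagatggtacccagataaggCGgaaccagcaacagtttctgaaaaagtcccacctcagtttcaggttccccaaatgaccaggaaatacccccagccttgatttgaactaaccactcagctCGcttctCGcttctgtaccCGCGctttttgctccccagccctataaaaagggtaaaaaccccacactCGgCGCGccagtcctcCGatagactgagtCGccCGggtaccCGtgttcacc
RLTR6_Mm_dup159: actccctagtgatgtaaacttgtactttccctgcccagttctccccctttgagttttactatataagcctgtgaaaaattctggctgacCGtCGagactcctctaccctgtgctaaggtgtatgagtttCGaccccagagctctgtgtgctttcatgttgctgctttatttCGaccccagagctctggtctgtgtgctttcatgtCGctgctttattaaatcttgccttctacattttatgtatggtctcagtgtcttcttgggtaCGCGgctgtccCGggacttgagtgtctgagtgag
MMERGLN-int_dup46: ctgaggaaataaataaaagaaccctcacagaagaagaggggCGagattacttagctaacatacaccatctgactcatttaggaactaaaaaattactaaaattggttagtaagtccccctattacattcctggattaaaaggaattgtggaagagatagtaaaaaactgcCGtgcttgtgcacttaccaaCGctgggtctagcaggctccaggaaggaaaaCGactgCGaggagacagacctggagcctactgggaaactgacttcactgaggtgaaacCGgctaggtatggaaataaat
MMERGLN-int_dup223: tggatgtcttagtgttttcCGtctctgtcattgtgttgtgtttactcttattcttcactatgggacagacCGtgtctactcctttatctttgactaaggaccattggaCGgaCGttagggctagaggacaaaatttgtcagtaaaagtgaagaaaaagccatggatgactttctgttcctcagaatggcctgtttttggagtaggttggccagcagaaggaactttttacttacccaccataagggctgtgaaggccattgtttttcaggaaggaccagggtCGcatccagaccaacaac

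The NRF1 motif, taken as the letters GCGCA, then any base (N), then GCGC, was searched on both strands. It was in none of the 90 promoter windows that lie at least 150 bp inside an ERV1 copy above 0, in 3 of the 127 windows (2.36%) that touch such a copy, and in 1507 of all 32817 windows (4.59%). These windows belong to annotated genes, many lie in internal parts, and some differ by only a few bases in position. Whole LTR sequences were not searched, so the counts do not say how often ERV1 promoters hold the motif. The median number of CG was 6 in the 90 windows and 7 in all windows. The window of a second GLN copy, MMERGLN-int_dup100, was identical to that of MMERGLN-int_dup46 at 298 of 298 aligned bases. The rest of these copies was not compared.

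The libraries held 26063590 to 39365841 counts over genes and TE subfamilies (median 33862160). The counts of the targeted genes did not follow the labels throughout. Dnmt3c, at 4.30 and 4.85 CPM (counts scaled to the total counts of the library) in WT, ranged from 3.10 to 4.54 in Dnmt3C KO and from 3.43 to 4.91 in dKO, which both overlap WT. Nrf1 ranged from 51.3 to 57.4 CPM in Nrf1 cKO, below the 57.8 and 58.9 of WT, but from 58.3 to 60.5 in dKO, which carries the same deletion, above every Nrf1 cKO library and overlapping WT. It ranged from 46.1 to 55.5 in Dnmt3C KO, which keeps Nrf1. Gene-level counts include transcript outside a deleted exon and RNA of somatic cells, so they checked no label, and the genotypes here are those of the labels. The paper reports that genotypes of its collected samples were verified by PCR. By immunofluorescence it found no NRF1 in germ cells of Nrf1 cKO and dKO testes. Summed CPM of 10 germ cell markers was 310.2 and 346 in WT, 301 to 547 in Dnmt3C KO, 115 to 200.1 in Nrf1 cKO and 140 to 342 in dKO, with none of the 10 at 0. The part of germ cell content in the results that follow was not tested. In whole testes fewer germ cells and less RNA per germ cell cannot be told apart.

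ERV1 RNA was a small and uneven fraction of the TE RNA of these testes. It took 7.67% ± 0.06 (SD, n = 2) of TE counts in WT, 8.13% ± 0.53 (n = 3) in Dnmt3C KO, 10.6% ± 1.9 (n = 3) in Nrf1 cKO and 8.84% ± 1.36 (n = 3) in dKO. All 3 Nrf1 cKO libraries, at 12.8%, 9.10% and 9.91%, were above both WT libraries, at 7.63% and 7.71%, while Dnmt3C KO and dKO libraries overlapped WT. The TE total moved the other way, from 2.99% of all counts in WT to 2.08% in Nrf1 cKO, and was lowest, at 1.60%, in Nrf1 cKO replicate 1, the library with the highest ERV1 share. As a share of all counts ERV1 stood at 0.229% in WT, 0.203% in Dnmt3C KO, 0.215% in Nrf1 cKO and 0.240% in dKO, so the higher share in Nrf1 cKO was not seen on that scale. These sums over members were not tested.

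**Figure D1:**
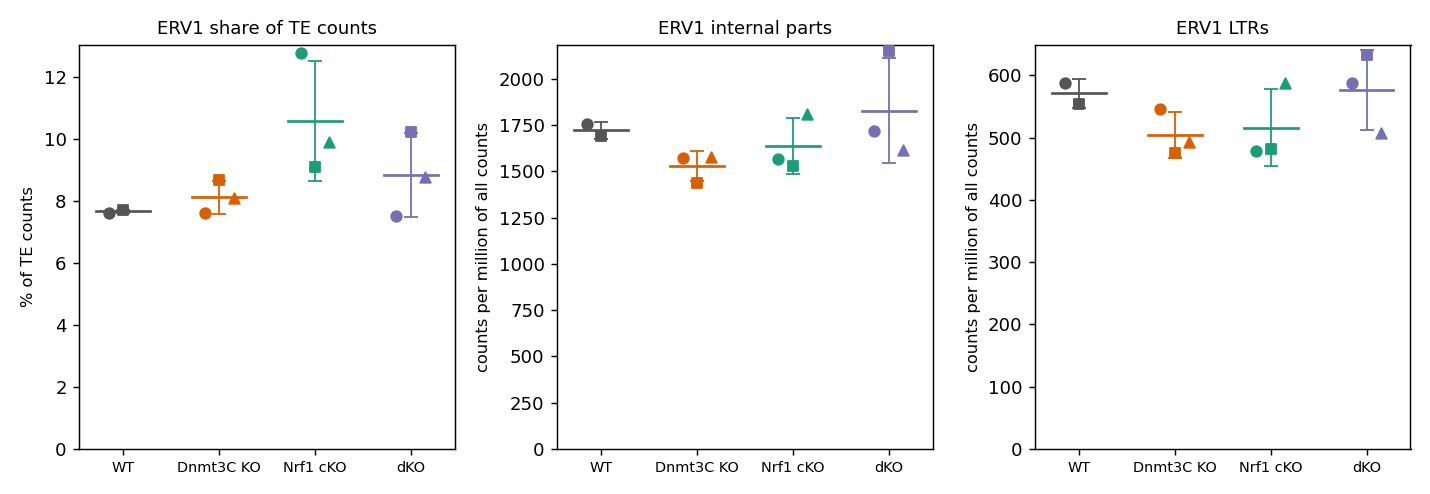
ERV1 share of TE counts (left, in percent), and CPM for ERV1 internal parts (middle) and LTRs (right), per library and genotype. Circles, squares and triangles are replicates 1, 2 and 3, horizontal lines are means and bars are SD. The share is highest in Nrf1 cKO replicate 1 at 12.8%, and internal parts are highest in dKO replicate 2 at 2149 CPM.

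MLV-type and VL30 elements supplied most ERV1 counts, which are not scaled for length here. MLV internal parts (RLTR4_MM-int and MuLV-int) took 46.2% to 58.6% of ERV1 internal counts over the 11 libraries, VL30 internal parts (MMVL30-int and RLTR6-int) 28.1% to 45.1% and GLN (MMERGLN-int) 3.71% to 8.33%. Among LTRs, MLV took 25.3% to 40.2%, VL30 20.1% to 28.7%, and 95 subfamilies outside the named lineages 29.7% to 40.0%. The order MLV, VL30, GLN held among internal parts of every genotype mean. RLTR6-int was grouped with VL30 here. Its copies of at least 3000 bp had a median length of 7590 bp, against 3700.5 bp for MMVL30-int. For RLTR4_MM-int copies of at least 4000 bp the median was 7559.5 bp. The lengths set RLTR6-int apart from MMVL30-int, so VL30 internal values are those of a mixed group.

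RLTR4_MM-int, the internal part of MLV-type proviruses, had 815 and 792 CPM in WT, 650, 677 and 767 for Dnmt3C KO, 822, 693 and 747 for Nrf1 cKO and 714, 1149 and 752 for dKO. MMVL30-int, the main VL30 internal part, had 557 and 605 CPM in WT, 577, 485 and 484 for Dnmt3C KO, 529, 588 and 787 for Nrf1 cKO and 634, 580.1 and 600 for dKO. For RLTR4_MM-int all 3 Dnmt3C KO libraries lay below both WT libraries (log2 fold change -0.20, SE 0.17, edgeR adjusted p = 0.958), while the other genotypes overlapped WT, with a single high library in dKO replicate 2. For MMVL30-int every mutant overlapped WT, with a single high library in Nrf1 cKO replicate 3. The smaller lineages lay far lower. Mean CPM in WT was 31.9 for RLTR14-int, 22.7 for RLTR1B-int, 19.96 for MERV1_I-int, 16.7 for the MuRRS internal parts, 6.82 for RodERV21-int and 2.90 for MURVY-int.

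GLN was the lineage with the smallest p for Dnmt3C loss. MMERGLN-int had 106 and 94.2 CPM in WT, 112, 101 and 131 for Dnmt3C KO, 77.0, 88.2 and 67.6 for Nrf1 cKO and 107, 174 and 125 for dKO. The lowest dKO library exceeded the highest Nrf1 cKO library, whereas Dnmt3C KO and WT overlapped. Its LTR, MMERGLN_LTR, had 6.48 and 7.79 CPM in WT, 6.49, 6.84 and 9.75 for Dnmt3C KO, 3.07, 5.63 and 4.26 for Nrf1 cKO and 7.004, 14.8 and 8.01 for dKO, in the same arrangement.

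Counts of subfamilies were compared between genotypes with edgeR's quasi-likelihood test over genes and TE subfamilies together, with Benjamini-Hochberg adjusted p under 0.01 as the call. The labels name no litters or animals, so these p-values measure the spread between the samples as deposited. No ERV1 subfamily was called in any of the 8 comparisons by edgeR, nor by DESeq2. By edgeR the background was 0.0% of features called in 7 comparisons and 0.00443% (1 of 22594) for Nrf1 loss over both Dnmt3C backgrounds. DESeq2 called more, 0 to 55 features per comparison (0% for the interaction to 0.243% for Nrf1 loss), with 0 to 11 TE subfamilies among them, the 11 for Dnmt3C loss (1.22% of TE subfamilies).

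At an unadjusted p under 0.05, ERV1 subfamilies mostly went with other TEs. In Dnmt3C KO over WT 0 of 87 were higher and 6 lower (background 1.93% and 14.3% over TE subfamilies, 2.56% and 2.86% over genes and TE subfamilies together), with a median log2 fold change of -0.22 for ERV1 and -0.34 for all TE subfamilies. In Nrf1 cKO over WT 0 of 87 were higher and 4 lower (background 0.0% and 28.4% over TE subfamilies, 1.53% and 4.22% over both), with medians of -0.39 and -0.56. The ERV1 share at this p was below the TE background in both. In dKO over WT 1 of 89 was higher and 2 lower (0.79% and 1.47%, with genes 0.544% and 1.19%), and the medians were -0.11 and -0.20.

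Where the dKO was set against the single mutants the signs turned. In dKO over Nrf1 cKO 6 of 81 ERV1 subfamilies were higher and 1 lower (background 9.67% and 0.121%, with genes 1.94% and 0.868%), with medians of 0.24 for ERV1 and 0.34 for TEs, and in dKO over Dnmt3C KO 4 of 86 were higher and 0 lower (3.17% and 0.47%, with genes 3.1% and 4.08%), with medians of 0.15 and 0.14. Over both Nrf1 backgrounds Dnmt3C loss gave 6 of 93 higher and 1 lower (3.43% and 0.221%, with genes 1.95% and 0.969%), with medians of 0.02 and -0.01. Nrf1 loss over both Dnmt3C backgrounds gave 0 of 93 in either direction (0.111% and 5.97%, with genes 3.87% and 4.66%), with medians of -0.14 and -0.21. For the interaction, the Dnmt3C effect in Nrf1 cKO minus that in WT, 13 of 93 were higher and 0 lower (28.5% and 0.111%, with genes 3.68% and 1.87%), with medians of 0.53 and 0.68.

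**Figure D2:**
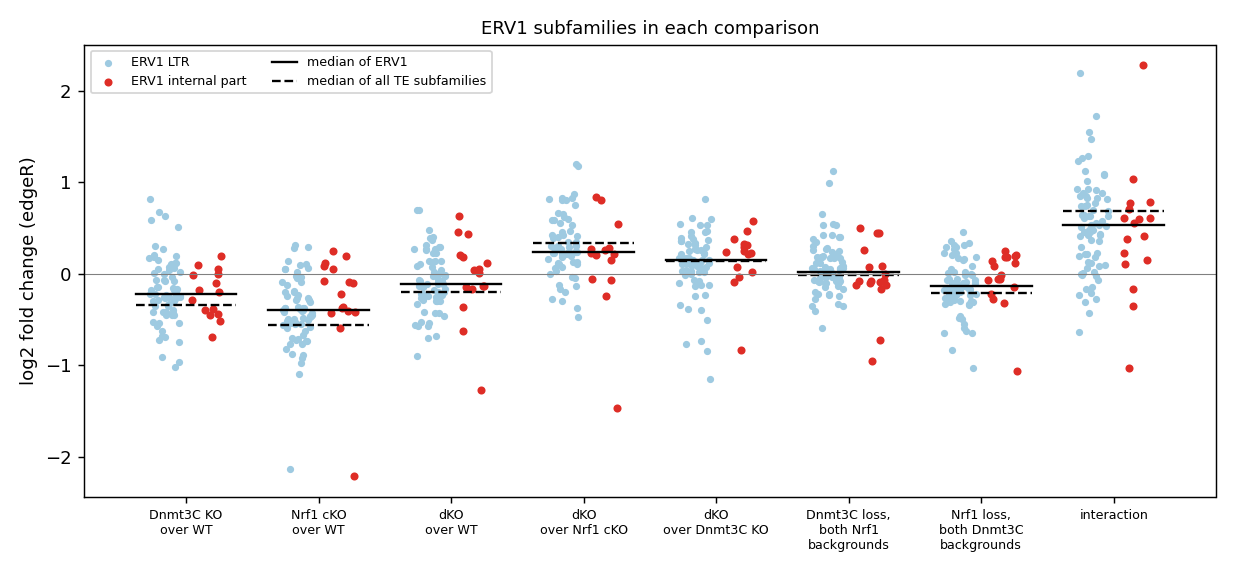
Log2 fold change by edgeR of each tested ERV1 subfamily, LTRs (blue) and internal parts (red), in the 8 comparisons; solid lines are the ERV1 medians and dashed lines the medians of all TE subfamilies. The ERV1 median lies nearer to 0 than the TE median in Dnmt3C KO over WT (-0.22 against -0.34), Nrf1 cKO over WT (-0.39 against -0.56) and the interaction (0.53 against 0.68).

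The leading subfamilies had folds of modest size, and none passed the adjusted threshold. For Dnmt3C loss over both backgrounds MMERGLN-int had a log2 fold change of 0.50 (SE 0.13, edgeR adjusted p = 0.872) and MMERGLN_LTR of 0.65 (SE 0.23, adjusted p = 1.00). In dKO over Nrf1 cKO the values were 0.80 (SE 0.19, edgeR adjusted p = 1.00) for MMERGLN-int and 1.20 (SE 0.34) for MMERGLN_LTR. Germ cell markers moved the same way there, with 2 of 10 higher at an unadjusted p under 0.05 (background 1.94%, median log2 fold change 0.63). For Dnmt3C loss over both backgrounds 3 of 10 were higher (background 1.95%, median 0.44). The part of germ cells in the GLN values was not tested. RLTR1B, an LTR of low level, had 0.42 (SE 0.16) and its internal part RLTR1B-int 0.27 (SE 0.11) for Dnmt3C loss. LTRIS4B, at 0.46 CPM in WT and 0.81 in Dnmt3C KO, had 1.00 (SE 0.31).

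Other leading differences lay in old or minor lineages. RLTR14-int had 34.5 and 29.3 CPM in WT, 24.1, 18.6 and 24.4 for Dnmt3C KO, 24.5, 21.7 and 26.5 for Nrf1 cKO and 27.8, 28.6 and 31.0 for dKO. Both single mutants lay below WT, and the dKO overlapped WT, with a log2 fold change of -0.51 (SE 0.17) in Dnmt3C KO over WT and an interaction of 0.78 (SE 0.21, edgeR adjusted p = 0.895). The direction of that interaction turned, to -0.05, when TPM summed over copies replaced counts. MER34B-int had a log2 fold change of -1.47 (SE 0.44) in dKO over Nrf1 cKO on 0.49 to 3.86 CPM in those 6 libraries. RLTR1B-int was at 25.1, 38.8 and 30.0 CPM in dKO, above the 8 other libraries at 20.01 to 23.6, and its folds of 0.54 (SE 0.17) over Nrf1 cKO and 0.47 (SE 0.16) over Dnmt3C KO turned to -0.36 and -0.14 with summed TPM.

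Single copies showed how concentrated the ERV1 RNA was. On the TPM scale, which divides by copy length and by the TE total of a library, 12 internal copies together held as much internal ERV1 TPM as all the others, and 28 LTRs as much LTR TPM, while the median copy had a mean of 0.163 and 0.195 TPM. Of the 9917 copies only 598 were above 0 in all 11 libraries. By GENCODE annotation (M21) 67.0% of internal copies and 56.0% of LTR copies were intergenic. Copies in introns on the gene's strand were 22.3% of LTR copies and held 29.3% of LTR TPM.

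The highest copies were parts of 2 MLV-type proviruses whose values moved together. On chr4:133096219-133101355 (intergenic, nearest gene Gm26615) the 3′ LTR RLTR4_Mm_dup46 had a mean of 1121 TPM, and on chr8:90886553-90891690 (within Chd9 on its strand, the LTR in an exon of a non-coding transcript) the 3′ LTR RLTR4_Mm_dup112 had 1116 TPM. Both LTRs had 924 TPM in WT replicate 2 and 2059 TPM in Nrf1 cKO replicate 1, but in Dnmt3C KO replicate 2 RLTR4_Mm_dup46 had 1254 and RLTR4_Mm_dup112 had 866 TPM. The counting shares multi-mapping reads among copies, and whether this set the equal values was not tested, so the level of either alone is uncertain. LTR78_dup248 in an intron of Nr2f2 (604 TPM), which encodes a nuclear receptor, was the highest copy outside the MLV lineage. It was followed by RLTR24_dup571 (501 TPM), RLTR30D_RN_dup55 between genes near Vars on chromosome 17 (496 TPM), MERV1_I-int_dup537 (434 TPM) and RLTR14-int_dup492 (390 TPM). RLTR24_dup571, MERV1_I-int_dup537 and RLTR14-int_dup492 all lie in introns of the lincRNA AU020206 on its strand. None of the 10 highest internal copies and 10 highest LTRs was called for Dnmt3C loss, Nrf1 loss or their interaction.

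The copies were then compared for Dnmt3C loss (6 Dnmt3C-deficient libraries against the 5 others, over both Nrf1 backgrounds), for Nrf1 loss and for the interaction. With limma on log2(TPM + 1), over 148790 TE copies with a mean of at least 1 TPM, none of the 454 internal and 1221 LTR ERV1 copies tested was called in any of them (background 0.00134% for Dnmt3C loss, 0.0% for Nrf1 loss and the interaction). At an unadjusted p under 0.05, limma gave 15 internal copies higher and 3 lower for Dnmt3C loss and 33 LTRs higher and 20 lower (background 2.54% and 2.03%). For Nrf1 loss the numbers were 14 and 1 internal copies and 27 and 17 LTRs (1.52% and 3.09%), and for the interaction 6 and 10 internal copies and 23 and 17 LTRs (3.08% and 1.32%). The edgeR fit of reads was added after the data had been seen. Its reads were recovered from TPM and copy length, with 100% of values whole within 0.01 read.

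In the read fit, most ERV1 internal copies called for Dnmt3C loss were GLN and RLTR1B copies. With edgeR at adjusted p under 0.01, 15 of 454 internal copies rose and 1 fell, and 4 of 1221 LTRs rose and 8 fell (background 0.283% higher and 0.0222% lower). Internal copies that rose were 8 of 24 GLN, 3 of 37 RLTR1B, 3 of 91 MLV and 1 of 185 VL30 copies tested. The 1 that fell was an RLTR6-int copy, grouped with VL30. No internal copy of the MuRRS, MURVY, MERV1, RLTR14 or RodERV21 lineages was called. Of the LTRs that fell, 6 were MLV, 1 GLN and 1 VL30. The level filter bears on these counts. Of the internal copies that rose, 10 of 15 had a mean under 1 TPM in the 5 libraries with Dnmt3C, 6 of them GLN copies, and so passed the filter only through the libraries in which they were high, as did all 4 LTRs that rose. In the other direction the 1 internal copy and 4 of the 8 LTRs that fell had a mean under 1 TPM in the Dnmt3C-deficient libraries and passed only through the libraries with Dnmt3C. The numbers of calls are therefore a description and no measure of how many copies of a lineage responded. This fit pools the spread over all copies. With a robust prior, which allows a spread of their own to outlying copies and kept the pooled spread for 97.8% of copies, 11 internal copies rose and 1 fell, 4 of the 8 GLN copies were no longer called, and the background was 0.246%.

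**Figure D3:**
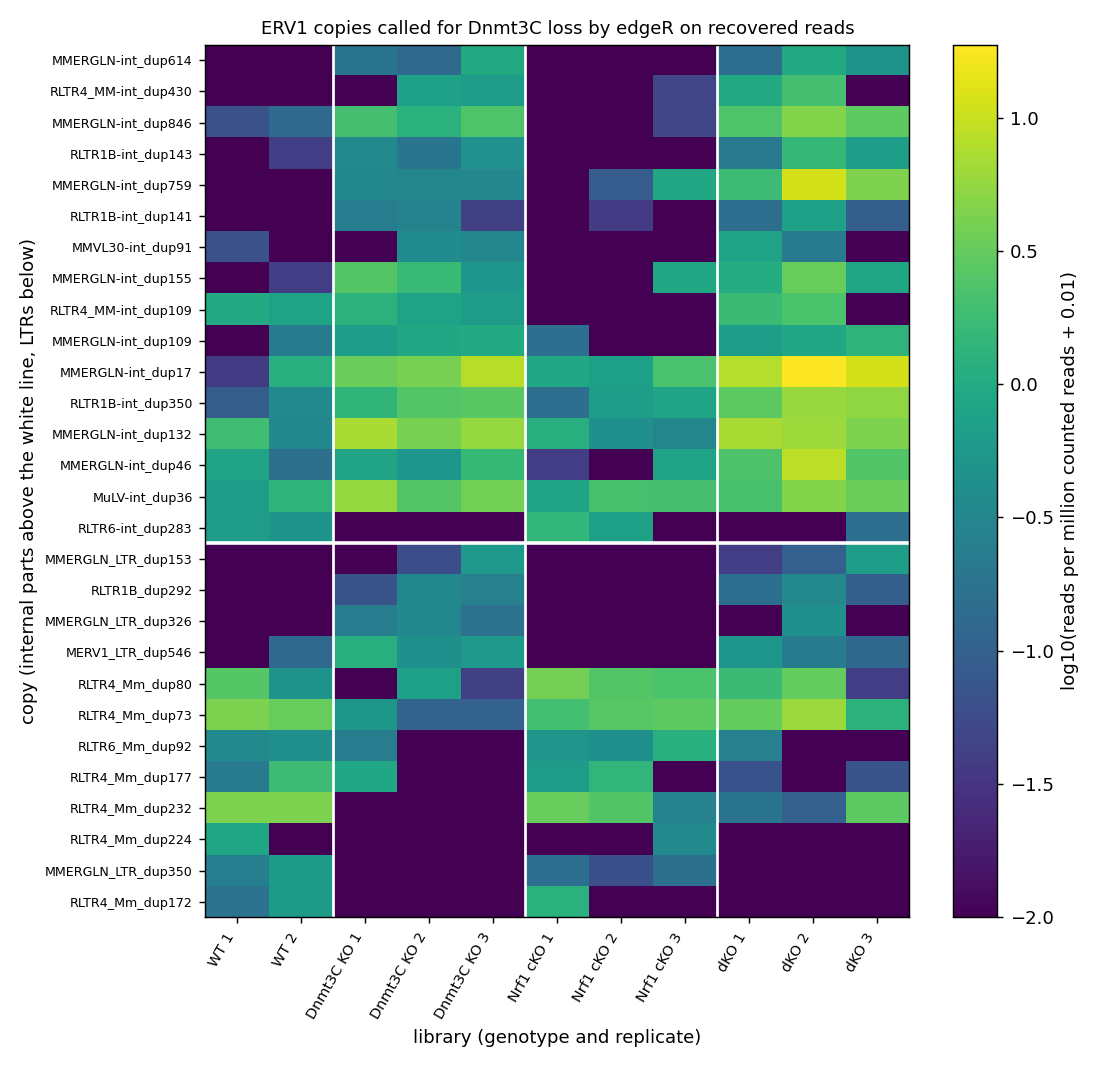
Heat map of RPM (reads scaled to the total counts of the library), as log10(RPM + 0.01), in the 11 libraries (columns, split by genotype) for the 16 internal copies and 12 LTRs (rows, above and below the white line) called for Dnmt3C loss by edgeR on recovered reads. The GLN copy MMERGLN-int_dup846 has 48 to 151 reads in the 6 Dnmt3C-deficient libraries and 0 to 4 in the others. The MLV-type LTR RLTR4_Mm_dup73 is lowest in Dnmt3C KO.

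Among GLN copies the clearest separation was at MMERGLN-int_dup846, a nearly full-length internal part of 7484 bp between genes on chromosome 18. It had 2 and 4 reads in WT, 68, 48 and 73 for Dnmt3C KO, 0, 0 and 1 for Nrf1 cKO and 82, 151 and 99 for dKO. All 6 Dnmt3C-deficient libraries lay above the 5 others. With a mean of 2.66 TPM in the former and 0.0388 TPM in the latter the copy passed the level filter only through the former, and edgeR called the difference in the pooled fit (adjusted p = 4.5e-21) and with the robust prior (adjusted p = 1.1e-30), while limma on log2(TPM + 1) did not (adjusted p = 0.960). Its reads were near 0 with Dnmt3C present whether or not Nrf1 was deleted. Its 3′ LTR had 6, 1 and 1 reads in Dnmt3C KO, 3 in dKO replicate 2 and 0 elsewhere. Its 5′ LTR had 1 read, in Dnmt3C KO replicate 3. The counting shares multi-mapping reads among copies, so the level of any single GLN copy named here is uncertain. Whether the reads came from that locus was not tested.

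MMERGLN-int_dup132 (chr5:81626059-81633612, minus strand, in an intron of Adgrl3 on the opposite strand) had 66 and 11 reads in WT, 241, 158 and 180 for Dnmt3C KO, 38, 16 and 8 for Nrf1 cKO and 242, 201 and 146 for dKO. The groups did not overlap, with a log2 fold change of 2.79 (SE 0.36, edgeR adjusted p = 2.5e-11, robust 3.8e-17), which was 3.62 without WT replicate 1. Its mean was 5.77 TPM in the Dnmt3C-deficient libraries and 0.922 TPM in the others, so it too passed the filter only through the former. MMERGLN-int_dup17 (chr1:83981538-83989092, minus strand, 47204 bp from Pid1) had 1 and 38 reads in WT, 114, 155 and 264 for Dnmt3C KO, 31, 27 and 56 for Nrf1 cKO and 277, 611 and 385 for dKO. It too did not overlap, with a log2 fold change of 3.24 (SE 0.34, edgeR adjusted p = 2.6e-18). That value ran from 2.75 without WT replicate 1 to 5.37 without WT replicate 2, so its size is uncertain beyond the SE, and the call was lost with the robust prior (edgeR adjusted p = 0.612).

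Among shorter GLN copies a pair was called in each of the read fits. MMERGLN-int_dup614 (chr10:17317492-17318564, minus strand, in an exon of the lincRNA Gm47761) had no reads in the WT and Nrf1 cKO libraries, 6, 5 and 30 for Dnmt3C KO and 5, 31 and 16 for dKO. With 3.45 TPM against 0 it passed the filter only through the Dnmt3C-deficient libraries (edgeR adjusted p = 1.0e-07, robust 2.3e-08). MMERGLN-int_dup109 (chr4:62061852-62062409, minus strand, nearest gene Mup20) had 0 and 7 reads in WT, 23, 36 and 31 for Dnmt3C KO, 5, 0 and 0 for Nrf1 cKO and 23, 29 and 45 for dKO. Its mean was 12.96 TPM against 1.21 TPM, and edgeR called it (adjusted p = 2.8e-06, robust 4.3e-08), but not without WT replicate 1 (adjusted p = 0.011). In both copies every Dnmt3C-deficient library lay above the others.

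The remaining 3 called GLN copies were less even between replicates, and each had a mean under 1 TPM in the libraries with Dnmt3C. MMERGLN-int_dup759 (chr15:83194189-83201743, plus strand) had 0 and 0 reads in WT, 11, 12 and 10 for Dnmt3C KO, 0, 3 and 24 for Nrf1 cKO and 60, 373 and 146 for dKO. MMERGLN-int_dup155 (chr6:58817673-58825229, minus strand) had 0 and 1, 85, 63 and 16, 0, 0 and 24, and 37, 106 and 28 reads in the same order of genotypes. In both, 1 Nrf1 cKO library overlapped the Dnmt3C-deficient ones, and the robust edgeR fit gave adjusted p of 0.827 and 0.872. MMERGLN-int_dup46, whose promoter window is printed here, had 29 and 5, 27, 20 and 48, 1, 0 and 20, and 80, 289 and 82 reads, with the highest value in dKO replicate 2, and was lost without WT replicate 2 and with the robust prior (adjusted p = 0.893).

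**Figure D4:**
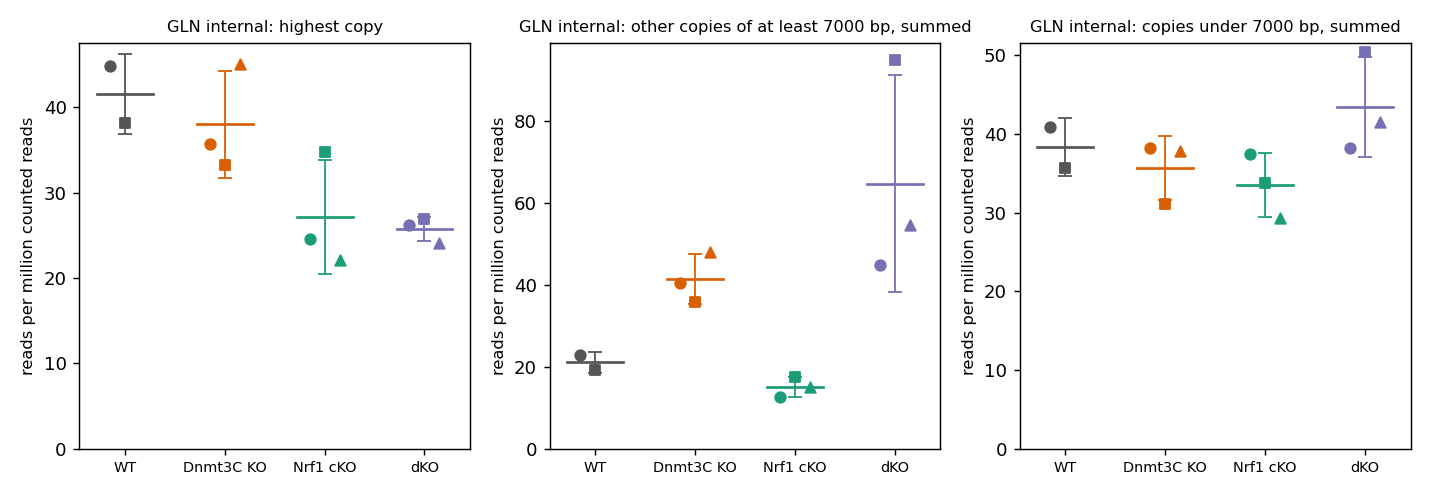
GLN internal parts in RPM of counted reads, for the highest copy (left), the 62 other copies of at least 7000 bp summed (middle) and the 151 shorter copies summed (right). Circles, squares and triangles are replicates 1, 2 and 3, horizontal lines are means and bars are SD. The highest copy is 41.5 in WT and 25.7 in dKO, while the others sum to 21.1 in WT, 41.4 in Dnmt3C KO, 15.03 in Nrf1 cKO and 64.6 in dKO.

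The long GLN copies did not move as one. There were 63 internal GLN copies of at least 7000 bp above 0, of which 9 passed the filter on level. The highest, MMERGLN-int_dup223 (chr8:121833275-121840834, plus strand, in an exon of the non-coding Gm42047), had 41.5 ± 4.7 RPM (SD, n = 2) in WT, 37.97 ± 6.2 (n = 3) in Dnmt3C KO, 27.1 ± 6.7 (n = 3) in Nrf1 cKO and 25.7 ± 1.4 (n = 3) in dKO. The next highest, MMERGLN-int_dup81 (chr4:11176470-11183871, minus strand), had 432 and 284 reads in WT, 259, 242 and 305 for Dnmt3C KO, 195, 181 and 167 for Nrf1 cKO and 304, 307 and 247 for dKO. MMERGLN-int_dup649 (chr12:20226754-20234331, minus strand) had 168 and 187, 197, 266 and 244, 82, 305 and 46, and 100, 93 and 153 reads in the same order. Neither separated the libraries by Dnmt3C, and neither was called. The 62 copies other than the highest together had 21.1 ± 2.5 in WT, 41.4 ± 6.1 in Dnmt3C KO, 15.03 ± 2.5 in Nrf1 cKO and 64.6 ± 26.5 in dKO. For that sum the lowest Dnmt3C-deficient library, at 35.8, was above the highest other library, at 22.9. Without the 6 of them that were called, the 56 remaining long copies had means of 18.8, 25.8, 12.2 and 30.7. The 151 GLN copies under 7000 bp had means of 38.3, 35.7, 33.6 and 43.4. These sums were not tested. Of the 63 long copies, with no filter on level, 52 had a higher mean in Dnmt3C-deficient libraries, where 72.7% of the 572 TE copies of any family of at least 7000 bp above 0 did. Without overlap 12 of the 63 lay above and 0 below, against 4.2% above (24 of the 572, these 12 included) and 0.0% below. The background for means is high, so the first count says little of GLN copies alone.

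RLTR1B internal copies, of a small lineage, gave 3 calls. RLTR1B-int_dup350 (chr9:57477642-57480829, minus strand, between genes) had 3 and 12 reads in WT, 47, 98 and 84 for Dnmt3C KO, 5, 25 and 21 for Nrf1 cKO and 97, 191 and 184 for dKO. The groups did not overlap, with a log2 fold change of 3.20 (SE 0.42, edgeR adjusted p = 7.9e-11, robust 2.4e-16). That fold ran from 2.84 to 3.90 when single libraries were left out. RLTR1B-int_dup143 (chr4:4341742-4342965, minus strand) had 0 and 1, 12, 7 and 14, 0, 0 and 0, and 7, 49 and 23 reads. RLTR1B-int_dup141, which lies beside it, was called but lost when any of 6 single libraries was left out. MERV1_LTR_dup546 (chr16:31557510-31557979, minus strand) had 0 and 4, 39, 17 and 18, 0, 0 and 0, and 18, 7 and 4 reads. It was the only LTR called in all 3 read fits and without each library in turn, while limma did not call it (adjusted p = 0.574). This LTR (8.06 TPM without Dnmt3C against 0.339 with it), RLTR1B-int_dup143 (3.58 against 0.0326) and RLTR1B-int_dup141 (3.14 against 0.0773) passed the filter only through the Dnmt3C-deficient libraries. Calls that hold in refits of copies selected this way are a description only.

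MLV-type copies, the most abundant lineage, did not move together. MuLV-int_dup36 (chr2:156357060-156360897, minus strand, over a UTR of Cnbd2 on the opposite strand) had 22 and 44 reads in WT, 192, 98 and 119 for Dnmt3C KO, 27, 78 and 52 for Nrf1 cKO and 73, 151 and 116 for dKO. It rose by 1.54 on the log2 scale (SE 0.36, edgeR adjusted p = 0.0070) although its lowest dKO library, at 73 reads, and its highest Nrf1 cKO library, at 78, were near-equal, and was lost without any of 7 libraries. RLTR4_MM-int_dup430 had 29 and 19 reads in 2 Dnmt3C KO libraries and 34 and 66 in 2 dKO libraries, 0 in the others of those genotypes and at most 1 elsewhere. RLTR4_MM-int_dup109, the other MLV internal copy called, had 36 and 26 reads in WT and 43, 31 and 20 in Dnmt3C KO, which overlapped, and its call came from the Nrf1-deficient libraries, with 0 in all 3 Nrf1 cKO and 58, 73 and 0 in dKO.

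The 6 MLV-type LTRs that fell all lost the call somewhere, 5 of them without single libraries and RLTR4_Mm_dup232 with the robust prior. RLTR4_Mm_dup232 (chromosome 18) had 158 and 143 reads in WT, none in the 3 Dnmt3C KO libraries, 111, 90 and 7 for Nrf1 cKO and 6, 3 and 96 in dKO. It is the 3′ LTR of RLTR4_MM-int_dup427, with 1272 and 987, 0, 811 and 292, 495, 939 and 249, and 669, 1011 and 864 reads. The robust edgeR fit called neither (adjusted p = 0.872 for the LTR and 1.00 for the internal part). Summed over the 48 RLTR4_MM-int copies of at least 4000 bp, RPM was 164 and 152 in WT, 85.4, 107 and 126 for Dnmt3C KO, 121, 129 and 105 for Nrf1 cKO and 125, 220 and 132 for dKO, and 21 of the 48 had a higher mean in Dnmt3C-deficient libraries, where 67.3% of TE copies of any family of at least 4000 bp did. The VL30 group gave 1 internal copy that fell, RLTR6-int_dup283 (chr6:148638974-148639779, minus strand, 8.30 TPM with Dnmt3C and 0.255 TPM without). It had 23 and 16 reads in WT and none in the Dnmt3C KO libraries. Nrf1 cKO had 50, 27 and 0, and dKO had 0, 0 and 5.

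For Nrf1 loss most calls in the read fit did not hold without each library in turn. With edgeR 3 of 454 internal copies rose and 1 fell, and 5 of 1221 LTRs rose and 1 fell, in a background of 0.0148% higher and 0.0255% lower. Of these 1 of 4 internal copies, RLTR4_MM-int_dup109, and 0 of 6 LTRs kept the call in all 3 read fits and without each library in turn. RLTR6-int_dup1013 (chr13:68442549-68450156, minus strand), of the VL30 group, had 328 reads in Nrf1 cKO replicate 2, 207 in dKO replicate 1 and at most 6 elsewhere. Its call was lost without either of these libraries and with the robust prior (edgeR adjusted p = 0.876). MMERGLN-int_dup759 was called for Nrf1 loss too, and not without Nrf1 cKO replicate 3. For the interaction 2 internal copies and 2 LTRs were called (background 0.0464%), among them RLTR4_MM-int_dup109 and RLTR4_Mm_dup73, each with an effect of Dnmt3C loss that differed between the Nrf1 backgrounds.

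Among genes that act on gammaretroviruses, none of 20 silencing genes, 7 restriction genes or 4 receptor genes was called by edgeR in any comparison. For Dnmt3C loss none of these genes had an unadjusted p under 0.05. Log2 fold changes were -0.12 (SE 0.13) for Zfp809, 0.10 (SE 0.14) for Trim28 and -0.03 (SE 0.11) for Setdb1, and -0.03 (SE 0.12) for Xpr1, the receptor of polytropic and xenotropic MLV. At that p 1 of the 20 silencing genes was lower for Nrf1 loss (background 4.66% of genes and TE subfamilies), and 1 also in Nrf1 cKO over WT (4.22%). In dKO over Dnmt3C KO 2 of 4 receptor genes and 2 of 20 silencing genes were higher (3.1%) and 1 of 7 restriction genes was lower (4.08%). A receptor gene was lower in Dnmt3C KO over WT (2.86%) and 1 was higher for the interaction (3.68%). Of the 10 germ cell markers, 7 were lower for Nrf1 loss (4.66%, median log2 fold change -1.04) and 3 higher for Dnmt3C loss (1.95%, median 0.44). They were also lower in Nrf1 cKO over WT (8 of 10, background 4.22%, median -1.27) and in dKO over Dnmt3C KO (4 of 10, background 4.08%, median -0.70), with none called in any comparison.

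Markers of the somatic cells also moved at an unadjusted p under 0.05, with none of them called and none at 0 in the table. All 3 red blood cell markers were lower in Dnmt3C KO over WT (median log2 fold change -1.21, background 2.86%) and in dKO over WT (median -1.31, background 1.19%), with summed CPM of 481 and 1463 in WT, 394 to 586 in Dnmt3C KO, 226 to 1308 in Nrf1 cKO and 187 to 628 in dKO. Of 6 Sertoli cell markers 2 were higher for Nrf1 loss (median 0.41, background 3.87%), 1 in Nrf1 cKO over WT (median 0.48, background 1.53%) and 2 in dKO over Dnmt3C KO (median 0.33, background 3.1%). Of the 5 Leydig, 4 peritubular, 4 endothelial and 4 macrophage markers, 0 to 2 of a list passed this p in either direction in each comparison, and for Dnmt3C loss this was 1 endothelial marker, lower. The part of these cells in the ERV1 results was not tested.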

How the data were processed

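The authors aligned stranded poly(A) RNA reads with STAR 2.7.3a to GRCm38 and deposited raw counts per gene and TE subfamily, with multi-mapping reads shared among copies, in pairwise tables. They also deposited TPM values per TE copy, scaled so that the TE copies of a library sum to a fixed total. The deposited tables further hold the authors' own log2 fold changes and p-values from DESeq2 (1.44.0), which were not used. Libraries held 26063590 to 39365841 counts. Here, counts were tested with edgeR 4.0.16 (quasi-likelihood, TMM, Benjamini-Hochberg over genes and TE subfamilies, adjusted p under 0.01) and, as an alternative, DESeq2 1.42.0. TPM values of copies with a mean of at least 1 were tested with limma 3.58.1 on log2(TPM + 1), in one fit of 4 genotypes. Reads recovered from TPM and length were tested with edgeR in fits added after the data were seen. Folds of copies with groups at 0 depend on the prior count and were not given. Tests were checked on simulated data, where limma on TPM missed smaller changes that edgeR on reads found and made more false calls. The simulation gave every copy the same spread, which the pooled edgeR fit assumes, and planted changes only in copies of higher level. It cannot show which test is right for copies of low level or with uneven replicates. Members and gene lists were chosen with earlier results of these data known. Named were the subfamilies with the smallest p and highest level, and the copies with the highest level or called. Gene positions came from GENCODE M21 and promoter sequences from RefSeq (GRCm38.p6). Sequence of chromosome 18 is not reported here. Other settings and each library left out in turn were tried. R 4.3.3 and Python 3.11.15 were used.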

Additional observations from a re-analysis of the deposited data

Results flagged for a closer look

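For 2 MLV-type copies the effect of Dnmt3C loss differed between the Nrf1 backgrounds, by the interaction term of the edgeR fit of recovered reads with a robust prior, a fit added after the data were seen. That fit called 51 of 148790 TE copies (0.0343%) for the interaction, among them 2 ERV1 internal copies and 2 ERV1 LTRs. The other ERV1 copies it called are not described here. Limma on log2(TPM + 1) called neither of the 2 named copies (adjusted p = 0.972 for both). RLTR4_Mm_dup73, an LTR in an intron of Galnt11 on its strand (chr5:25230699-25231439), had 152 and 109 reads in WT, 18, 4 and 3 for Dnmt3C KO, 66, 99 and 76 for Nrf1 cKO and 108, 198 and 43 for dKO (log2 interaction 4.39, SE 0.73, edgeR adjusted p = 2.79e-08). It was low only in Dnmt3C KO among these genotypes, apart from dKO replicate 3. RLTR4_MM-int_dup109, a fragment of 204 bp near Lyrm2 (chr4:32791094-32791297), had 36 and 26 reads in WT, 43, 31 and 20 in Dnmt3C KO, 0 in all 3 Nrf1 cKO libraries and 58, 73 and 0 in dKO (edgeR adjusted p = 2.95e-07). The cause was not tested.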

How the results depend on the processing

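No ERV1 subfamily was called under the alternatives run, except that scaling to germ cell markers gave 1 for Nrf1 cKO over WT, where 14.9% of genes and TE subfamilies were called, and 15 of 93 (16.1%) for Nrf1 loss, where 32.4% of both together and 5.53% of TE subfamilies were called. The numbers called by limma over copies stayed at 0, also without each library in turn. Recovered reads in edgeR gave, with TMM over copies, scaling to genes and TEs, and a robust prior, 29, 28 and 20 ERV1 copies for Dnmt3C loss (0.327%, 0.305% and 0.246% of all TE copies called), 12, 10 and 7 for Nrf1 loss (0.0484%, 0.0403% and 0.039%), and 4, 4 and 4 for the interaction (0.0397%, 0.0464% and 0.0343%), which had 8 at adjusted p under 0.05 (0.0867%). Leaving out each library gave 18 (without WT replicate 1) to 27, 6 (without WT replicate 1) to 13, and 3 to 7 (without Nrf1 cKO replicate 1). Of the copies called for Dnmt3C loss, 8 of 16 internal and 1 of 12 LTRs kept their call in all 3 fits and all left-out fits. All of these but RLTR1B-int_dup350 and RLTR4_MM-int_dup109 had a mean under 1 TPM in their low group of libraries. They passed the level filter only through their high group, so that their calls hold is a description only. ERV1 shares were 0.229%, 0.203%, 0.215% and 0.240% of all counts, and 2.04%, 2.28%, 2.95% and 2.41% of TE TPM, in WT, Dnmt3C KO, Nrf1 cKO and dKO. Without single libraries the shares of TE counts were 7.63% to 7.71%, 7.85% to 8.39%, 9.504% to 11.3% and 8.14% to 9.504%. Directions turned for RLTR14-int in the interaction (-0.049 with summed TPM), RLTR1B-int in dKO over Nrf1 cKO (-0.091 scaled to germ cell markers, -0.36 with summed TPM) and RLTR1B-int in dKO over Dnmt3C KO (-0.14 with summed TPM). The cause was not tested. With the replicate number as a block, edgeR called 0 ERV1 subfamilies and limma 0 copies, as without it. The fits of recovered reads were not run with the block. Libraries that share a number correlated from -0.23 to 0.22 in their deviations, so no pairing by number was seen. Deviations from means of so few libraries cannot exclude pairing. The paper describes littermate controls where possible, and the labels do not name them. The numbers are those of the sample titles, and the deposited column names carry others for the third Dnmt3C KO and dKO libraries.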
